A study of Caenorhabditis elegans with 6 samples.

Results

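The peaks described here are those that lie close to the tips of the *C. elegans* chromosomes. A peak was taken when its center fell within 200 kb of either end of 1 of the 6 nuclear chromosomes, which gives 12 tips and 2.40 Mb, or 2.39% of the nuclear genome. They numbered 523 of 13996 peaks in the wild type list and 294 of 9674 peaks in the *prde-1* mutant list, 817 in all. The outermost limit of the rule was not marked by a gap. Just inside it were peaks centered 199051 bp (X right, wild type) and 199930 bp (IV right, wild type) from the end, and just outside it were peaks 201939 bp and 202424 bp from the end of II right.

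Accessible chromatin was mapped by ATAC-seq, in which the Tn5 transposase inserts sequencing adapters into open DNA, on isolated germ nuclei (IGN) of young adult worms grown at 20°C. The groups were wild type (strain VC2010, 3 samples) and the null mutant *prde-1(mj207)V* (strain SX2499, 3 samples), with no further treatment. PRDE-1 is a subunit of the complex that binds upstream of Type-I piRNA genes, which are clustered on chromosome IV, and is needed for their transcription but not for that of the Type-II genes scattered elsewhere. The mutant strain becomes sterile over generations and was backcrossed to N2, and its worms were harvested some hours later than wild type, so genotype, strain background and hours of growth cannot be told apart. The authors deposited 1 list of peaks per genotype that merges its 3 samples. The spread between samples and the depth are therefore unknown, and the 95% intervals given here cover counting error only, in which neighboring peaks are treated as independent although they are not.

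Chromosome ends are protected by telomeres, which in *C. elegans* are tandem repeats of the hexamer TTAGGC bound by proteins such as POT-1, POT-2, MRT-1, TEBP-1 and TEBP-2. The chromosomes are holocentric, and their arms carry more repeats and more H3K9 methylation than their centers. Near 1 end of each chromosome lies a pairing center, where the zinc finger proteins HIM-8 and ZIM-1, ZIM-2 and ZIM-3 bind in meiosis and tether the chromosome to the nuclear envelope.

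Several peaks reached into the telomeric repeats themselves, and their sequences are shown first, with peaks that hold no telomeric hexamer for contrast. All are the plus strand of ce11, 5′ to 3′, and capitals mark every copy of TTAGGC or of its reverse complement GCCTAA. The first 4 are terminal peaks of chromosomes II and X, which begin or end in the repeat. The fifth is an array that lies inside II right, in which TTAGGC alternates with altered copies. The last 3 hold no copy of the hexamer and are the outermost peak of III right, the peak at *pot-3*, which encodes a POT family protein, and the peak at *B0348.10*, the highest-scoring wild type peak of V left.
II left, prde-1 mutant peak, chrII:111-389: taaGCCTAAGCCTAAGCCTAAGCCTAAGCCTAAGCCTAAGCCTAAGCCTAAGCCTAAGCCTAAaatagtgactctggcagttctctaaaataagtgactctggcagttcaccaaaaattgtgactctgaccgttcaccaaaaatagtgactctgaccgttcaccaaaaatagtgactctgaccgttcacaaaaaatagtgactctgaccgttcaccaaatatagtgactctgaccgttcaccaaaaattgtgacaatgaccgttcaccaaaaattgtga
II right, wild type peak, chrII:15279199-15279311: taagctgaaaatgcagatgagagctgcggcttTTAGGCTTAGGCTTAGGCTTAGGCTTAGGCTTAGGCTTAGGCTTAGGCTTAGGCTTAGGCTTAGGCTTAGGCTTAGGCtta
X left, wild type peak, chrX:176-310: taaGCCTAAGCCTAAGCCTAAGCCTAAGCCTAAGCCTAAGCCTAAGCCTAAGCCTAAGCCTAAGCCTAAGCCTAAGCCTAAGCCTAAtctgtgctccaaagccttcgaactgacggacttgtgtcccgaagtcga
X right, wild type peak, outer 200 bp, chrX:17718711-17718910: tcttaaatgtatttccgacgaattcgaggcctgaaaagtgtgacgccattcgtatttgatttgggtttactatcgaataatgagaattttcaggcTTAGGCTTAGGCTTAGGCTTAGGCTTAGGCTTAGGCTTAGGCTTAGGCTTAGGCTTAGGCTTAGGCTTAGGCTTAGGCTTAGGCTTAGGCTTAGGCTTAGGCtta
II right, Y46E12BL.7, 200 bp around the wild type summit, chrII:15255246-15255445: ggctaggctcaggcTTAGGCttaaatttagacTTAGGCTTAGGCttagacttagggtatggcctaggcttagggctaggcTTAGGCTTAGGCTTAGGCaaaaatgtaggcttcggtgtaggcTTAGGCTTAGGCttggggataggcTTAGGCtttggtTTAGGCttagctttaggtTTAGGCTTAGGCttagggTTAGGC
III right, wild type peak, chrIII:13782750-13782874: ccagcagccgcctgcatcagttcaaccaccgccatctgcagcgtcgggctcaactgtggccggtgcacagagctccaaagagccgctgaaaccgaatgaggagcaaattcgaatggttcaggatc
III right, *pot-3*, 120 bp around the wild type summit, chrIII:13780300-13780419: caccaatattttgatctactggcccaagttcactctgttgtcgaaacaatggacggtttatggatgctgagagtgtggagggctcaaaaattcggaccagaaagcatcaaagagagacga
V left, *B0348.10*, 120 bp around the wild type summit, chrV:8872-8991: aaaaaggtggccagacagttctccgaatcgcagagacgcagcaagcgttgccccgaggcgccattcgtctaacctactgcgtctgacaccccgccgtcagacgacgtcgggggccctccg

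The terminal peak of II left was the only 1 of these called on terminal repeats in both lists. In wild type it ran from position 57 to 967 with a −log10 p of 18.1 at the summit (rank 1297 of its list by score), and the *prde-1* mutant list had 2 shorter peaks within it. The shorter terminal peak shown above, of 279 bp, held 10 copies of the hexamer and ranked 8031. The terminal peaks of II right (13 copies), X left (14 copies) and X right (17 copies) were found in wild type only, at ranks 13584, 11932 and 5572. The array inside II right, nearest to the ncRNA gene *Y46E12BL.7* and 24154 bp from the end, was present in both lists, with a wild type rank of 2877 and a mutant rank of 5926.

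Across the 12 tips, the assembly ends in a run of telomeric hexamers of 131 to 432 bp. A wild type peak overlapped this run at 6 tips (I left, I right, II left, II right, X left and X right) and a *prde-1* mutant peak at 1 (II left). In wild type, 8 tips had a peak centered within 1 kb of the end, and the center nearest to the end lay at a median distance of 799 bp. The *prde-1* mutant list had such a peak at 2 tips (II left and III right), and its median distance was 6131 bp. The highest-scoring terminal peak was that of I right, 626 bp long and 340 bp from the end, which covered the ncRNA gene *cTel29B.1* and 23 hexamers. Its −log10 p was 32.9 and its rank 1119, and no *prde-1* mutant peak overlapped it. The terminal peak of I left, with 44 hexamers, had a −log10 p of 8.13 and likewise no counterpart. The 2 lists thus differed at the terminal repeats at 5 of the 6 tips where wild type had a peak. Over the whole list, 36.1% of wild type peaks had no counterpart, and this share depended on score. The peaks of II right and X left lay in score deciles 10 (the lowest) and 9. There, 89.5% and 81.9% of wild type peaks further than 200 kb from an end had none. The peaks of I left and X right lay in decile 4 (8.43%) and that of I right in decile 1 (0.441%).

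**Figure D1:**
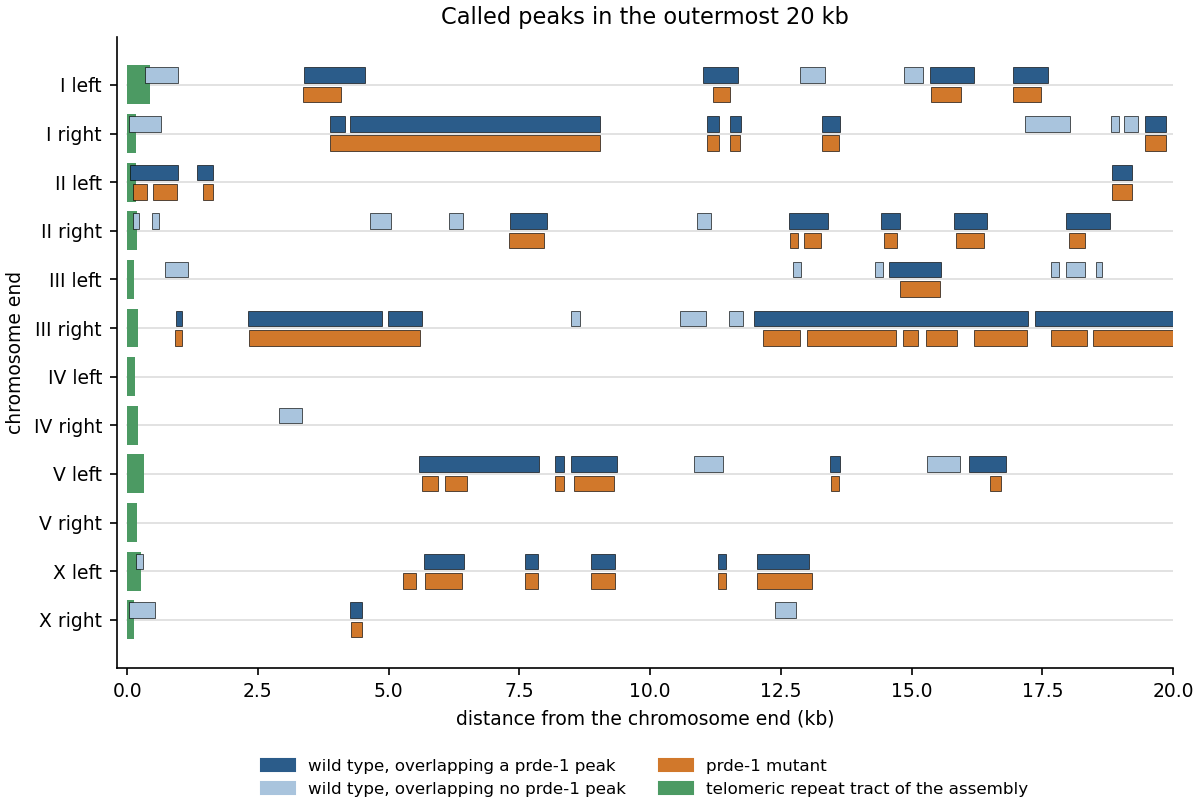
Peaks in the outermost 20 kb of each of the 12 tips, drawn to scale by distance from the chromosome end in kb. Upper boxes are wild type peaks (dark blue with, light blue without an overlapping *prde-1* mutant peak), lower boxes are *prde-1* mutant peaks, and green bars are the terminal telomeric repeats of the assembly, which wild type peaks overlapped at 6 tips and *prde-1* mutant peaks at 1.

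Peaks with at least 2 hexamers in a row, on either strand, made up 15 of the 523 wild type tip peaks (2.87%, 1.75 to 4.68) and 253 of the 13473 wild type peaks further inside (1.88%, 1.66 to 2.12). Of all 334 bp stretches of the genome, the median peak width, 0.495% held such a pair. Of the 15 tip peaks, 13 had no counterpart in the *prde-1* mutant (86.7%, 62.1 to 96.3), where 42.0% would be without one if they followed other peaks inside of the same score rank. Inside, 192 of 253 had none (75.9%, 70.3 to 80.7), against 45.3% from their ranks. Peaks on the hexamer thus lacked a counterpart more often than their ranks gave in both regions, and the tips held too few of them to tell the regions apart. Short reads place poorly on such repeats. In the outer 1 kb the share of 31-base words that occur once in the genome ran from 2.40% at X left to 88.9% at III left, and its part in these counts was not tested.

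Compared with the whole inside, peaks were denser at the tips in wild type, and less clearly so in the *prde-1* mutant. In wild type the tips held 218 peaks per Mb and the inside 138, a ratio of 1.58 (1.45 to 1.73), and wild type peaks covered 11.1% of the tips and 6.66% of the inside. In the *prde-1* mutant the tips held 122 peaks per Mb and the inside 95.8, a ratio of 1.28 (1.14 to 1.44), and peaks covered 5.04% and 3.78%. The interval of the mutant ratio included 1 for left ends alone (1.17, 0.990 to 1.39), for tips of 500 kb (1.06, 0.978 to 1.15) and in the upper 50% of each list (1.13, 0.946 to 1.34). Against 200 kb to 2 Mb from the end only, the ratios were closer, at 1.55 in wild type (1.41 to 1.70) and 1.47 in the mutant (1.30 to 1.66). Against 200 to 400 kb only, they were 1.47 (1.29 to 1.69) and 1.39 (1.17 to 1.66). The tips were not richer in genes, with 165 protein-coding transcription start sites (TSSs) per Mb against 200 inside. Tip peaks in wild type had a median width of 370 bp (332 inside) and a median rank at 54.3% of the list (49.9% inside). The tips had 38 peaks in the top 10% of the wild type list, or 7.27% of their peaks.

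By distance, the wild type density was highest 10 to 25 kb from the end, at 294 per Mb. It fell to 187 per Mb at 150 to 200 kb and 148 per Mb at 200 to 400 kb, and was 137 to 138 per Mb at every distance beyond 1 Mb. The *prde-1* mutant had 200 peaks per Mb at 10 to 25 kb, 100 per Mb at 25 to 50 kb and 80.9 per Mb at 1 to 2 Mb, before a rise to 104 per Mb beyond 4 Mb. Both lists were thus most dense in the same stretch near the end.

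**Figure D2:**
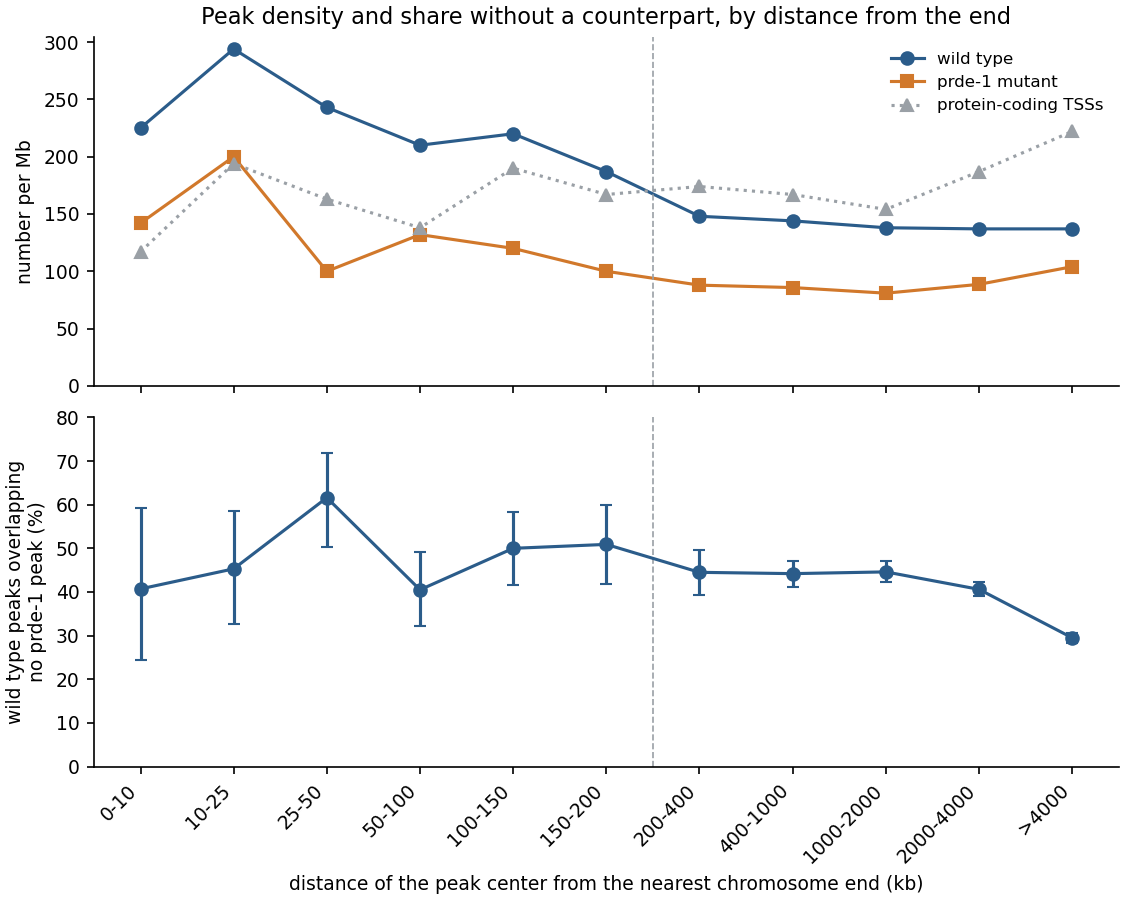
Peaks per Mb in wild type and the *prde-1* mutant and protein-coding TSSs per Mb (upper panel), and the percentage of wild type peaks that overlap no *prde-1* mutant peak with 95% Wilson intervals (lower panel), by distance from the nearest chromosome end in kb; bins differ in width and the dashed line marks 200 kb. Wild type density falls from 294 per Mb at 10 to 25 kb to 137 per Mb beyond 4 Mb, and the share without a counterpart varies between 40.5% and 61.6% within 200 kb and is lowest, at 29.5%, beyond 4 Mb.

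The comparison of the genotypes asks which tip peaks were also called without PRDE-1. Over the whole lists, 36.1% of wild type peaks overlapped no *prde-1* mutant peak and 1.91% of *prde-1* mutant peaks overlapped no wild type peak. At the tips, 254 of 523 wild type peaks had no counterpart (48.6%, 44.3 to 52.8), 13.0 percentage points more than the 35.6% inside (8.66 to 17.3). In the other direction 3 of 294 *prde-1* mutant peaks had none (1.02%, 0.348 to 2.96), against 1.94% inside. The *prde-1* mutant list held 0.562 peaks for each wild type peak at the tips (0.487 to 0.648) and 0.696 inside (0.678 to 0.715).

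This excess was not limited to the tips. Of wild type peaks 200 kb to 2 Mb from an end, 44.5% had no counterpart (42.7 to 46.2), and the tips exceeded this by 4.09 points, with an interval that included 0 (−0.523 to 8.71). Beyond 2 Mb the share was 33.0%, 15.6 points below the tips (11.2 to 20.0). The wild type density was similar in both stretches, at 141 peaks per Mb from 200 kb to 2 Mb and 137 per Mb beyond 2 Mb. The *prde-1* mutant density was lower in the first, at 83.3 against 99.4 per Mb.

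The share without a counterpart depended on score, so tip peaks were also compared with inside peaks of the same rank. In each of the 10 deciles of the wild type list by score, the share was higher at the tips. It was 20.3% against 8.43% in decile 4, 51.0% against 33.5% in decile 6 and 98.4% against 89.5% in decile 10, the lowest-scoring. The intervals of tips and inside were separate in deciles 4, 6, 8 and 10. They overlapped in deciles 1, 2, 3, 5, 7 and 9, for example at 1.23 to 14.8% against 2.49 to 4.42% in decile 3. In the upper 50% of the list, 34 of 245 tip peaks had no counterpart (13.9%, 10.1 to 18.8), against 430 of 6753 inside (6.37%, 5.81 to 6.98). With the ranks of the tip peaks, the inside share would be 39.1%. Tip peaks without a counterpart had a median GC content of 48.5% and those with one 43.3%, and with the GC content of the tip peaks the inside share would be 39.9%. The share at the tips was also higher in each of the 5 quintiles of GC content, but the intervals overlapped in quintiles 1 to 4. It was 34.0% against 31.2% in quintile 3 and 82.5% against 66.5% in quintile 5, the highest in GC. Both comparisons used the whole inside. They were not made against 200 kb to 2 Mb from an end alone, where the share over all ranks was 44.5%.

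**Figure D3:**
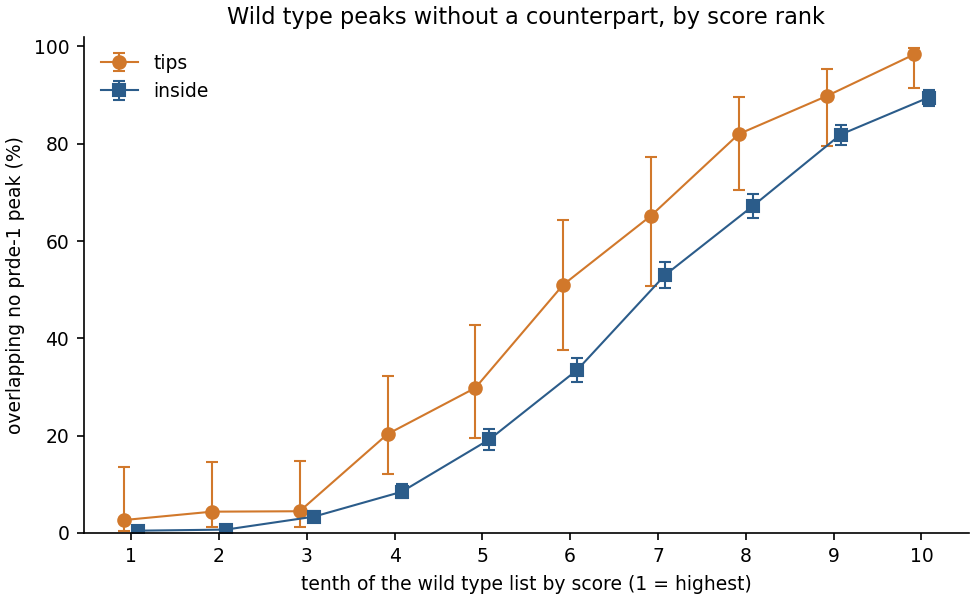
Percentage of wild type peaks that overlap no *prde-1* mutant peak at the tips and inside, for each decile of the wild type list by score (1 is the highest), with 95% Wilson intervals. The tips lie above the inside in all 10 deciles, for example at 51.0% against 33.5% in decile 6, with intervals that overlap in deciles 1, 2, 3, 5, 7 and 9.

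Where both lists had a peak, the *prde-1* mutant peak was usually the narrower. Its width was a median 0.824 of that of the wild type peak at the tips and 0.894 inside, and 90.0% of the shared tip peaks and 86.8% of those inside were wider in wild type. At 21 shared tip peaks (7.81%, 5.16 to 11.6) a single wild type peak met 2 or more *prde-1* mutant peaks, and inside this was 5.39% (4.94 to 5.89). The widest case was at *pdr-1*.

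The tips differed several-fold from each other. In wild type, III right had 86 peaks, III left 58, II right 57, I left 50, V left 45, I right 44, II left and V right 40 each, IV left 36, X left 29, X right 21 and IV right 17. In wild type 10 of 12 tips were above the inside mean of 138 peaks per Mb, IV right (85.0 per Mb) and X right (105 per Mb) being below. In the *prde-1* mutant 9 of 12 were above their own inside mean. Against the next 200 kb of the same chromosome, 8 tips had more wild type peaks and 4 had fewer (I right, IV left, IV right and X right). Per chromosome, the wild type ratio of tips to inside was 2.22 on III, 2.02 on V, 1.59 on II, 1.43 on I, 1.04 on IV and 0.953 on X. The share without a counterpart exceeded the inside share of 35.6% at 10 of 12 tips and ran from 23.5% at IV right (9.56 to 47.3) to 75.9% at X left (57.9 to 87.8). By chromosome the difference from the inside was 22.9 points on III (14.5 to 30.9) and on X (9.10 to 35.9) and 11.7 on V (1.14 to 22.3), whereas on I, II and IV its interval included 0. On III both tips were above the inside, at 60.3% on the left and 57.0% on the right. On X only the left tip was, as X right had 28.6% (13.8 to 50.0) against 33.1% inside X.

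**Figure D4:**
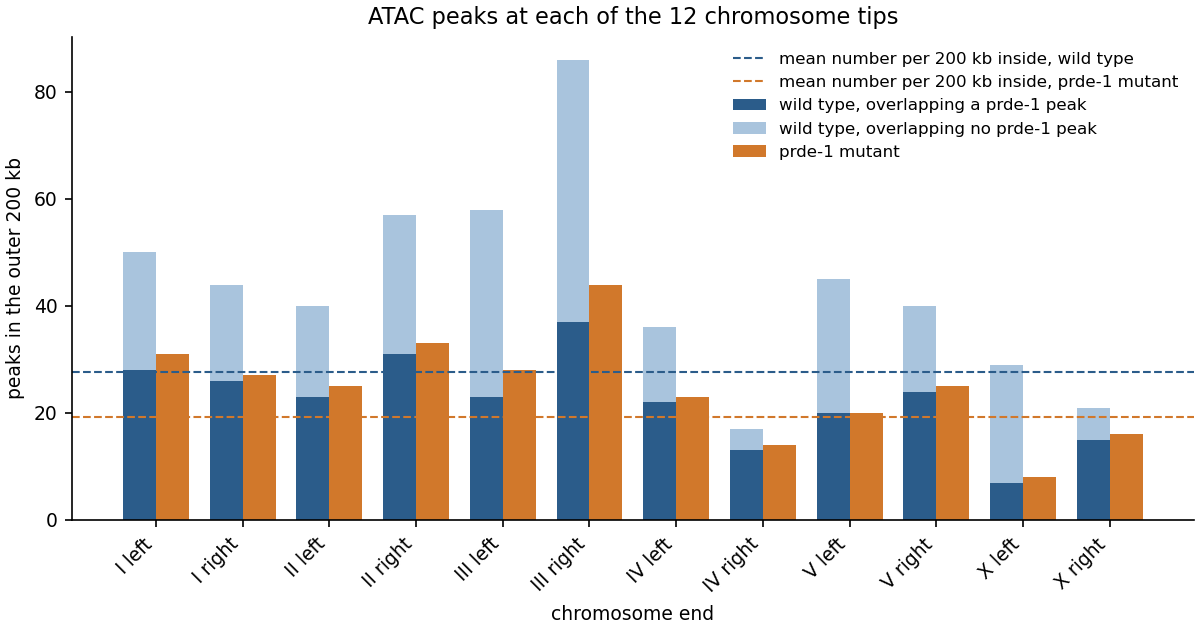
Number of peaks in the outer 200 kb of each tip, for wild type (stacked, with and without an overlapping *prde-1* mutant peak) and the *prde-1* mutant; dashed lines give the mean number per 200 kb inside. III right is highest with 86 and 44 peaks, and IV right has the fewest wild type peaks, 17.

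III right had the largest share of its bases in peaks among the 12 tips, 30.6% in wild type against 14.0% in the *prde-1* mutant. Ranks given as a pair below are those in the wild type and then the *prde-1* mutant list, where 1 is the highest score. In wild type 15 of its 86 peaks were wider than 1000 bp. Its highest-scoring wild type peak, at *pdr-1* (the homolog of human parkin, a ubiquitin ligase of mitochondrial quality control), ran from 13766570 to 13771812 at rank 99. It overlapped 5 *prde-1* mutant peaks, of which the 1 with the largest overlap ranked 3878. The next in rank lay over *pot-3* at 13778937 to 13781488, with its summit 145 bp from the TSS in the first coding exon and 3589 bp from the chromosome end to the center of the peak. It ranked 135 in wild type with a −log10 p of 18.9, and the *prde-1* mutant peak there, from 13778194 to 13781474, ranked 19 with 17.6. The same mutant peak also overlapped a second wild type peak, of rank 2821. Ranks follow an area, and wild type tip peaks of like rank had higher summits, with 43.7 at *B0348.10* (rank 181) and 50.0 at *hif-1* (rank 182). In the outer 10 kb of III right 46.1% of 31-base words occur once in the genome. A peak 171 bp from the TSS of *set-16*, an H3K4 methyltransferase of the MLL family, ranked 245 and 277. Of the 86 wild type and 44 *prde-1* mutant peaks of III right, the nearest protein-coding gene was *W06F12.2* for 11 and 5. It was *set-16* for 9 and 3, and *lit-1*, a Nemo-like kinase of Wnt signaling, for 8 and 7. The highest-scoring peak without a counterpart, 1975 bp wide at rank 2608, had its summit in a coding exon of *hip-1*, which encodes an Hsp70-interacting protein. The outermost peak, whose sequence is given above, lay in the pseudogene *WBGene00007066*, 990 bp from the end, and had ranks of 12305 and 7192. Of the summits at III right, 36 lay in coding exons.

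III left had a larger share without a counterpart, 35 of 58 (60.3%, 47.5 to 71.9), and in its outer 20 kb a single one of 7 wild type peaks was shared. That peak, which matched the outermost mutant peak, lay 350 bp from the TSS of *H10E21.1*, with a wild type rank of 1165 and a mutant rank of 1003. The terminal wild type peak, 940 bp from the end and nearest to the F-box gene *fbxa-6*, held no hexamer and ranked 9928. The highest-scoring wild type peak was at *F40G9.6*, 89 bp from its TSS, with ranks of 833 and 1560. The highest-scoring peak without a counterpart was in an intron of *C29F9.5* (rank 4808) and held 10 hexamers. The collagen gene *col-88* was the nearest coding gene to 7 wild type peaks and 1 *prde-1* mutant peak, of 58 and 28 at this tip. A *prde-1* mutant peak of 205 bp without a counterpart lay near the pseudogene *WBGene00020545*, at rank 8429.

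I right carries the ribosomal DNA, and the peak there was the first of both lists. It spanned 15063385 to 15068172 in wild type with a −log10 p of 117 and 15063390 to 15068545 in the *prde-1* mutant with 88.1, nearest to *rrn-3.1*, a large subunit rRNA gene. The assembly holds few of the many copies of this array, and how reads of the other copies were placed was not tested. At I left the highest-scoring wild type peak, 32 bp from the TSS of the snoRNA gene *Y74C9A.6*, had a wild type rank of 224 with a −log10 p of 47.7 and a mutant rank of 91 with 35.2. A peak in an intron of *cest-27*, a carboxylesterase, was the highest-scoring without a counterpart at this tip (rank 4483).

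II right had 57 wild type and 33 *prde-1* mutant peaks, where its neighboring 200 kb had 19 and 13. The nearest protein-coding gene was *spsb-1* for 13 wild type and 7 *prde-1* mutant peaks and *spsb-2* for 8 and 6, both of which encode SPRY and SOCS box proteins, although ncRNA genes lay nearer to most of these peaks. The outermost *prde-1* mutant peak was shared and was nearest to the ncRNA gene *2RSSE.6* (ranks 3404 and 2029). The highest-scoring wild type peak lay 85 bp from the TSS of the ncRNA gene *Y46E12BL.9*, at ranks 450 and 349. The highest-scoring peak without a counterpart was near another ncRNA gene of the same stretch, *Y46E12BL.5* (rank 4702), and held 18 hexamers. This tip held 7 of the 15 wild type tip peaks with the repeat. II left had 40 and 25 peaks. Its highest-scoring wild type peak, 3167 bp from the TSS of *egl-26*, a gene of vulval morphogenesis, ranked 535 and 413. An intronic peak of *ascc-1* (rank 5921) was the highest-scoring without a counterpart, and an intronic *prde-1* mutant peak of *tre-5*, a trehalase, had no wild type counterpart (rank 8676).

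V left and V right had far more wild type peaks than the neighboring 200 kb, 45 against 16 and 40 against 19. The highest-scoring wild type peak of V left, at *B0348.10* and shown above, ranked 181 and 133, with −log10 p of 43.7 and 28.7. The outermost peak of this tip covered part of *ife-3*, which encodes a germline eIF4E, over 2303 bp in wild type (rank 1474), where the *prde-1* mutant had 2 short peaks of ranks 9351 and 9550. *egl-8*, a phospholipase C beta, and *rps-27* were each the nearest coding gene to 6 wild type peaks and 1 *prde-1* mutant peak, of 45 and 20 at this tip. The highest-scoring peak without a counterpart was 614 bp from the piRNA gene *21ur-15058* (rank 6379). V right began with a peak 20269 bp from the end, near the amine oxidase gene *amx-3*, with the same start and end, 20903821 and 20904002, in both lists. Its highest-scoring wild type peak was at *hif-1*, the hypoxia-inducible transcription factor, 1922 bp from the TSS, at ranks 182 and 151. Its highest-scoring peak without a counterpart was near *sdf-9*, a protein of the tyrosine phosphatase family (rank 5464).

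On IV the tips were about as dense in peaks as the inside. IV left had no peak in either list before position 51087, and in its outer 50 kb only 6.77% of 31-base words occur once in the genome. The first peak was also its highest-scoring in wild type, near *T05C7.4*, at ranks 610 and 480 with −log10 p of 39.0 and 27.5. The highest-scoring without a counterpart had its summit in a coding exon and was nearest to the ncRNA gene *F29C4.11* (rank 5668). IV right had 17 and 14 peaks, fewer than the 34 and 20 in its neighboring 200 kb, although 54 protein-coding TSSs lie there, more than at any of the other 11 tips. Its highest-scoring wild type peak, 1775 bp at *F11E6.4* with a −log10 p of 12.1 (rank 1510), had no counterpart in the *prde-1* mutant. Its outermost wild type peak lay at the TSS of *nas-6*, an astacin metalloprotease, and had none either. The outermost *prde-1* mutant peak, 76 bp from the ncRNA gene *F11E6.21*, was shared (ranks 5407 and 7796).

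On X the left and right tips differed. X right had 21 and 16 peaks, of which the highest-scoring in wild type lay 7 bp from the tRNA gene *C16H3.7*, at ranks 1200 and 2565. The outermost mutant peak of X right, 413 bp from the TSS of *cTel55X.1*, was shared (ranks 3634 and 2869). X left had 29 and 8, and its wild type peaks changed with distance. Out to 30326 bp from the end 7 of 8 wild type peaks were shared, and the 21 wild type peaks from 43413 to 196642 bp had no counterpart. The outermost *prde-1* mutant peak, of 254 bp near the pseudogene *WBGene00008351* (rank 9561), overlapped no wild type peak. The shared wild type peaks lay mostly near pseudogenes, the highest-scoring of them at *WBGene00008350* (ranks 4871 and 5146). Those without a counterpart included a peak at the pseudogene *WBGene00023391* (rank 5364) and others in and near *Y73B3A.1* and *elk-2*. *Y73B3A.1* was the nearest coding gene to 11 wild type peaks and to all 8 *prde-1* mutant peaks of X left, so its count takes in the shared peaks. *elk-2* was the nearest to 2 and 0. Of the 15 protein-coding TSSs of X left, 6 had a wild type peak within 500 bp and 0 had a *prde-1* mutant peak. X left had the lowest share of 31-base words that occur once, 50.3%, and a median wild type rank at 76.4% of the list. The split by distance was seen in the values and was not tested.

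Tip peaks lay less often at promoters of protein-coding genes. Of wild type tip summits, 139 (26.6%) were within 500 bp of a protein-coding TSS, against 35.1% inside, a difference of −8.52 points (−12.2 to −4.50). Seen from the genes the order was the opposite, as 158 of 395 protein-coding TSSs at the tips had a wild type peak within 500 bp (40.0%), against 30.4% inside, a difference of 9.58 points (4.82 to 14.5). Against the stretch 200 to 400 kb from the end alone this difference was 5.79 points, with an interval that included 0 (−0.847 to 12.4). In the *prde-1* mutant the tip and inside shares of TSSs were 29.4% and 25.1%. The shares of peaks and of TSSs follow unlike rules, the first by the summit and the second by any base of a peak. Wild type tip peaks were wider (median 370 against 332 bp) and denser, and the part of this in the share of TSSs was not tested. Annotated 5′ ends are often trans-splice sites in *C. elegans*, so a TSS here is the annotated start of a gene. Of the wild type summits, 255 (48.8%) were intergenic, 127 (24.3%) in introns and 22.8% (19.4 to 26.5) in coding exons, and inside 14.5% were in coding exons. Of the tip summits in coding exons, 95 had no counterpart (79.8%, 71.7 to 86.1), and of the other 404 tip peaks 159 (39.4%, 34.7 to 44.2). Inside, the shares were 69.9% and 29.8%, so summits in coding exons lacked a counterpart more often in both regions.

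Among other gene classes, ncRNA genes at the tips had a wild type peak within 500 bp in 71 of 129 cases (interval 46.4 to 63.4%), against 36.2% inside. A *prde-1* mutant peak was found at 37 of them (28.7%), close to the 26.9% inside. Pseudogenes had one in 13 of 52 cases (interval 15.2 to 38.2%) in wild type, against 13.8% inside, and in 6 cases (11.5%) in the *prde-1* mutant, against 8.38% inside. Wild type peaks of all kinds were denser at the tips, at 218 against 138 per Mb, and covered 11.1% against 6.66% of bases. The part of this general difference in the shares of ncRNA genes and pseudogenes was not tested. Of 12 snoRNA genes 8 had a wild type peak and 5 a *prde-1* mutant peak, where 69.5% and 58.1% had one inside. Of 4 tRNA genes 3 had a peak in each list, where 94.6% and 90.0% had one inside. Of 44 piRNA genes at the tips, 5 had a wild type peak within 500 bp (11.4%, 4.95 to 24.0) and 1 a *prde-1* mutant peak (2.27%). Inside, the shares were 7.05% and 4.65%, and the interval for the tips included the wild type value.

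Of 12 genes for telomere and pairing center proteins, 4 had a peak within 500 bp of the TSS in each list (*pot-2*, *pot-3*, *mrt-2* and *tebp-2*), near the share of all protein-coding TSSs inside, 30.4% in wild type and 25.1% in the mutant. *pot-3* was the 1 gene of the list that lies at a tip, with its TSS 3586 bp from the end of III right, and had the highest ranks, 135 and 19. The wild type ranks of the others were 3379 to 7418, and their mutant ranks 3612 to 6525. As a check of the nuclei, 8 of 12 germ line genes had a peak within 500 bp of the TSS in each list, as had 7 of 11 somatic marker genes in the wild type list and 6 in the mutant list. Taken as 2 pooled sets, germ line and somatic markers were thus above the share of protein-coding TSSs inside just given. By tissue, body muscle had 3 and 2 of 3 genes with a peak in the wild type and mutant lists. Intestine had 2 and 3 of 3, neurons 1 and 1 of 3, and hypodermis 1 and 0 of 2. The 3 intestine markers did not go the same way. The yolk gene *vit-2* was at rank 2 of the wild type list and rank 914 of the mutant list. *elt-2* was at 3959 and 3272, and *ges-1* had a peak in the mutant list only (rank 8740). None of the somatic markers lies at a tip, and the part of somatic nuclei in the difference between the lists was not tested.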

How the data were processed

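ATAC-seq of 3 wild type and 3 *prde-1* mutant IGN samples entered as 1 merged list each. Per the paper's methods and the labels, the authors used cutadapt, aligned to ce11 with bowtie2, kept mapping quality of at least 10, discarded duplicates and mitochondrial reads, merged the downsampled replicates, kept fragments under 100 bp, offset ends for Tn5 and called peaks with Genrich (versions not given in the sources used here). The deposited score is the area under the signal curve of −log10 p, as the authors' caller wrote it, and peaks are ranked by it. The deposited −log10 p at the summit is unadjusted.

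Genes came from Ensembl release 115 (WBcel235, the same assembly as ce11). A counterpart shares at least 1 base. Densities carry Poisson, shares Wilson and differences Newcombe intervals (95%). The members and lists were chosen with earlier results of these data known. Peaks named at each tip are the outermost in each list, the highest-scoring wild type peak, the highest-scoring without a counterpart and every *prde-1* mutant peak without one. The second peaks at *pot-3* and *ife-3*, *elk-2*, *Y73B3A.1*, *Y46E12BL.7* and the genes counted by number of nearest peaks were chosen after their values were seen. Alternatives varied tip width, the tips and chromosomes used, the region compared with, the share of each list kept, the overlap rule, the TSS distance and the scaling by TSSs, covered bases, score rank or GC content. Python 3.11.15, numpy 2.4.6, scipy 1.17.1 and matplotlib 3.10.9 were used, with the counts tested on simulated peaks.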

Additional observations from a re-analysis of the deposited data

How the results depend on the processing

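Of 66 alternatives, 55 left the value within the reported interval, 11 moved it beyond and 0 turned its direction. Among the 55, the share of protein-coding TSSs with a wild type peak differed by 5.79 points against 200 to 400 kb (−0.847 to 12.4), and the mutant density ratio was 1.17 for left ends alone (0.990 to 1.39). The density ratio in wild type became 1.28 with tips of 500 kb, 1.92 per protein-coding TSS and 1.42 for bases covered over those of 1 kb bins of equal GC content. With 1 tip left out it ran from 1.44 (without III right) to 1.67. In the *prde-1* mutant it became 1.06 with tips of 500 kb (0.978 to 1.15), 1.13 in the upper 50% of each list (0.946 to 1.34), 1.55 per protein-coding TSS and 1.47 against 200 kb to 2 Mb from the end. The difference in the share without a counterpart became 4.06 points against 200 to 400 kb (−2.66 to 10.7), 4.09 points against 200 kb to 2 Mb and 8.65 points with inside peaks standardised for GC content. The comparison with 200 kb to 2 Mb was chosen after seeing the data. Why these values moved was not tested, beyond what each setting changes by construction.

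No paired analysis was possible because the deposited lists pool the 3 replicates of each genotype, and for the same reason no replicate was left out. Depth is unknown. Whether peaks without a counterpart lay just under the calling threshold, and whether peaks went uncalled in stretches with few unique 31-base words, was not tested.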
